A study of Mus musculus with 147 samples.

Results

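The hypoxia-inducible factor (HIF) pathway was examined in single renin cells as 10 genes, chosen by symbol, of the 35438 genes in the count tables. These were the subunit genes *Hif1a*, *Epas1* and *Arnt*, the prolyl hydroxylase genes *Egln1*, *Egln2* and *Egln3*, the ubiquitin ligase gene *Vhl*, and the target genes *Bnip3*, *Slc2a1* and *Epo*. YFP-positive cells were sorted from the kidney cortex of adult mice of both sexes with the strain label C57BL/6, captured on the Fluidigm C1 System and amplified with SMART-Seq v4. The 51 WT renin cells came from 4 mice with an intact renin gene (Ren1c+/+ Ren1c-YFP) in 1 capture. The 96 Renin-null cells came from 12 mice without it (Ren1c-/- Ren1c-YFP) in 4 captures, and were sequenced as libraries YFP1 and YFP2, with 48 cells in either. YFP came from a transgene under Ren1c control that mice of both genotypes had, so the sort read the activity of that control sequence. The Ren1c-/- mice alone had been given saline injections after birth. No mouse or capture was given for a cell. Each genotype was therefore 1 sample, no difference between genotypes was tested, and genotype, capture and library cannot be told apart.

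In most cells HIF is a pair of one alpha subunit, encoded by *Hif1a* or *Epas1* (HIF-2α), and the common subunit encoded by *Arnt*. In oxygen, the EGLN enzymes hydroxylate prolines of the alpha subunit, the VHL protein binds the hydroxylated form, and the alpha subunit is degraded, so that the level of the mRNA does not give the level of the factor. When oxygen falls, the alpha subunit persists, pairs with ARNT and raises genes for glucose uptake, glycolysis, mitophagy, vessel growth and, in the kidney interstitium, erythropoietin. *Egln1* and *Egln3* are among the induced genes, which closes a negative feedback loop.

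The HIF pair binds DNA at the letters ACGTG or GCGTG. The targets *Slc2a1*, *Bnip3*, *Egln1* and *Egln3* are shown here because their ratios are described below, each as 25 bases of the RefSeq promoter (GRCm38.p6, from 250 bases before to 50 after the start, read in the direction of the gene) around 1 match, with the match in capitals.
*Slc2a1*: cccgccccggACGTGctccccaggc
*Bnip3*: ctccgccgccGCGTGcgtcccgccc
*Egln1*: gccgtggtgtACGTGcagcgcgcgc
*Egln3*: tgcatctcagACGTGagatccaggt
The stretch of *Slc2a1* is chr4:119108699-119108723 on the plus strand. Those on the minus strand are chr7:138909527-138909551 for *Bnip3*, chr8:124949308-124949332 for *Egln1* and chr12:54204089-54204113 for *Egln3*. The match began 36, 35, 68 and 229 bases before the RefSeq start that set the window, in that order. The gene coordinates given below are from GENCODE M21, and their starts differ from these. The match of *Egln1* lies within the coordinates given for that gene. On either strand the whole window held 2 matches for *Slc2a1*, 5 for *Bnip3*, 2 for *Egln1* and 1 for *Egln3*. The window of *Vhl* held 0. Windows were found for 9 of the 10 genes, and 9 of their 10 windows held a match, against 43.8% of the 32851 promoter windows of all genes. ACGTG also lies within the E-box CACGTG, and a match was a description of the letters only.

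Levels are given as counts per 1000000 counts (CPM). For a genotype, the counts of its cells were added before scaling, and a log2 ratio is that of the Renin-null level over the WT level. Summed counts were 197904443 for WT renin cells and 398812805 for Renin-null cells, with a range per cell of 26401 to 17124854 and of 3628 to 14505243. Intervals are exact 95% intervals. Those on levels and ratios cover counting error only, and those on shares of cells treat cells as independent draws. The median mitochondrial share of the counts was 60.4% for WT renin cells and 12.4% for Renin-null cells. The median log2 ratio of the 18720 genes with a ratio was 1.17, so each gene is also set against this median. The labels were checked with *Ren1* and *Akr1b7*, a marker of renin cells that does not need renin itself. In WT renin cells *Ren1* was at 96020 CPM and in Renin-null cells at 0.135 CPM, and *Akr1b7* was at 4528 and 2011 CPM.

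Some wells stood apart, and the summed markers of other kidney cells were more abundant in Renin-null cells, though not in each library. A marker list of tubule, podocyte, endothelial, macrophage, fibroblast or red blood cells held over 1000 CPM in 42 Renin-null wells and in 2 WT wells. Of the endothelial markers, *Cdh5*, *Egfl7* and *Plvap* were at 0 in WT renin cells. Over all 8 endothelial genes the level was 180 CPM in WT renin cells, mostly *Ehd3* (148 CPM), and 302 CPM in Renin-null cells, mostly *Emcn* (161 CPM), with *Ehd3* at 75.7 CPM. In YFP1 that level was 43.1 CPM, below WT, and in YFP2 517 CPM. Genes of fibroblasts and proximal tubule differed more. The 6 fibroblast genes were at 173 CPM, with *Col1a2* at 164 CPM, and at 1159 CPM, with *Col3a1* at 534 CPM. The 8 proximal tubule genes were at 30.1 and 420 CPM, with *Slc34a1* at 7.96 CPM in WT renin cells and *Miox* at 115 CPM in Renin-null cells as the most abundant. Podocyte and haemoglobin genes were also more abundant in Renin-null cells. Of the podocyte genes *Synpo* was the most abundant, at 83.2 and 168 CPM, and *Podxl* was at 0 in WT renin cells. The 4 haemoglobin genes were at 0.414 and 434 CPM, with 9.13 CPM in YFP1 and 789 CPM in YFP2. The 5 genes of loop and distal tubule were at 0.521 and 111 CPM, the 5 of the collecting duct at 24.3 and 83.7 CPM (7.57 CPM in YFP1 and 147 CPM in YFP2), and the 7 macrophage genes at 0.925 and 3.93 CPM. *C1qb*, *C1qc* and *Adgre1* were at 0 in both genotypes. The 8 genes of the response to cell dissociation were at 8176 and 8759 CPM in the summed counts, but the median over cells was 748 CPM for WT and 3574 CPM for Renin-null, with 21 of 51 and 76 of 96 wells over 1000 CPM. The part of this response in the ratios was not tested. Among Renin-null wells, 4 pairs were nearly identical (correlations of 0.974 to 0.987 over genes, against 0.896 for the next pair), and 3 of these pairs joined a YFP1 well to a YFP2 well. The part of these wells in the results was not tested. Without the wells high in another cell type's markers, or with near-identical wells counted once, the sign of a gene's ratio changed only for *Epas1*, in the former. The values that moved most stand beside the genes below.

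**Figure D1:**
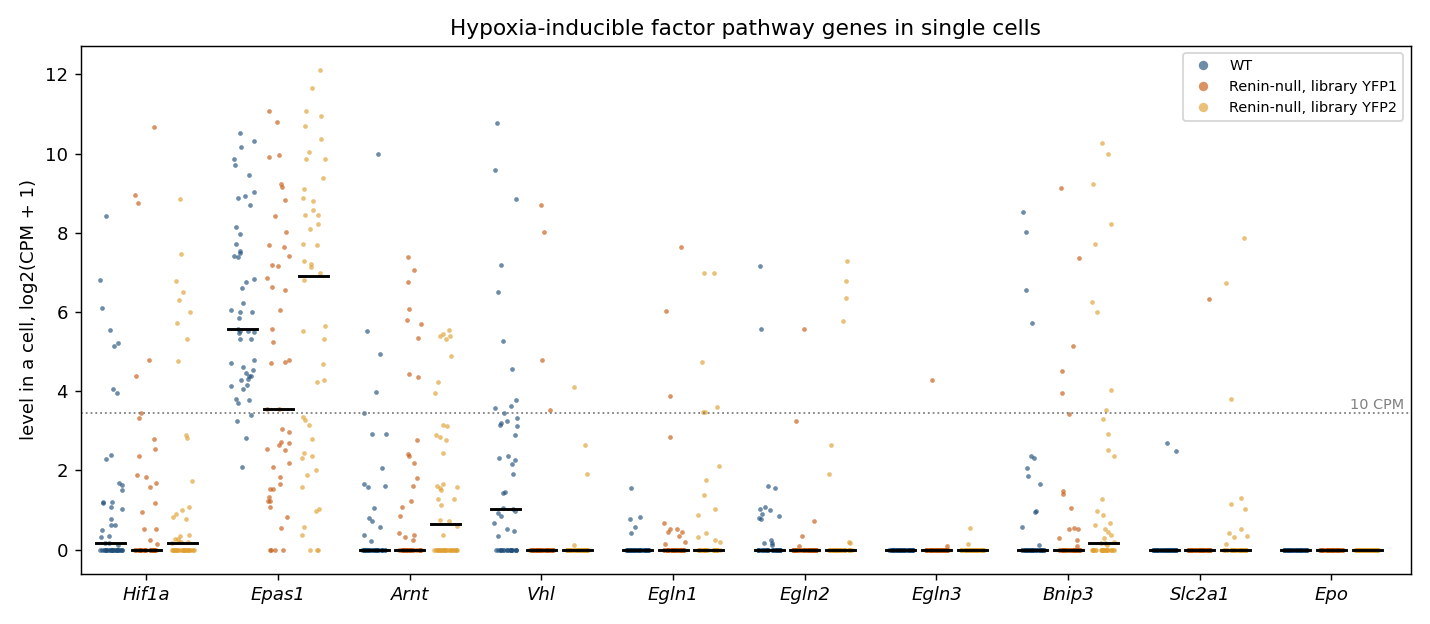
Level of each gene as log2(CPM + 1) in each of 51 WT renin cells and 48 + 48 Renin-null cells; a point is a cell, the black bar is the median and the dotted line marks 10 CPM. *Epas1* is the gene with points in nearly every cell of each library, whereas the other genes have a few high cells above a mass at or near 0.

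Of the alpha subunits, *Epas1* (chr17:86753700-86833410 on GRCm38) was the widespread one. In WT renin cells *Epas1* ranged from 3.23 to 1462 CPM with a median of 46.7 CPM, and all 51 cells held a count. In Renin-null cells it ranged from 0 to 4431 CPM with a median of 31.9 CPM, and 89 of 96 cells held a count. The ranges overlapped almost wholly, but Renin-null cells were more spread. At 10 CPM or more, *Epas1* was found in 47 of 51 WT renin cells, or 92.2% (exact 81.1% to 97.8%). In Renin-null cells the number was 56 of 96, or 58.3% (47.8% to 68.3%). At 100 CPM or more the order turned, with 19 of 51 and 40 of 96 cells. The drop at the lower limit was also seen in cells thinned to 62000 counts, where a count was held by 41 of 49 WT renin cells, or 83.7%, and by 46 of 83 Renin-null cells, or 55.4%.

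Summed over cells, *Epas1* was at 440 CPM for WT and 564 CPM for Renin-null, and the log2 ratio was 0.36 (0.34 to 0.37). The libraries disagreed in sign, at -0.22 for YFP1 and 0.70 for YFP2, which share the WT renin cells. The YFP1 median over cells was 10.8 CPM and the YFP2 median 119 CPM, so over all cells the library medians lay on either side of WT. With the filter on cells given below for *Vhl*, the median was 470 CPM over 15 WT and 114 CPM over 57 Renin-null cells. Of these, 15 and 34 cells were at 10 CPM or more. Without the wells high in another cell type's markers the ratio was -0.27. Under each of the 15 other ways of scaling or choosing cells that were tried, *Epas1* stayed below the median of all genes, by 0.28 to 2.17 on the log2 scale.

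*Hif1a* (chr12:73901375-73947530) was concentrated in few cells. In WT renin cells it ranged from 0 to 345 CPM with a median of 0.115 CPM, and 8 of 51 cells were at 10 CPM or more (15.7%, 7.02% to 28.6%). In Renin-null cells it ranged from 0 to 1638 CPM with a median of 0, and 14 of 96 cells were at 10 CPM or more (14.6%, 8.21% to 23.3%). These shares were alike over all cells, but with the filter on cells the numbers were 6 of 15 WT and 8 of 57 Renin-null cells. Summed over cells, *Hif1a* was at 36.0 CPM for WT and 56.98 CPM for Renin-null, which gave a log2 ratio of 0.66 (0.62 to 0.70). A single cell held 56.3% of the WT counts and another 61.4% of the Renin-null counts. The ratio was 1.38 for YFP1, the library of that Renin-null cell, and -0.45 for YFP2. The Renin-null well with the second highest count was at 465 CPM of *Hif1a* and at 21.5 CPM of the 4 smooth muscle genes, which were at 11550 CPM over all Renin-null cells, and at 747 CPM of collecting duct genes. The ratio was 1.35 without the wells high in another cell type's markers and 0.73 with near-identical wells counted once.

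Per kilobase of exon, *Epas1* was at 78.8 CPM and *Hif1a* at 6.11 CPM in WT renin cells, and at 101 and 9.66 CPM in Renin-null cells. *Epas1* was above *Hif1a* in both genotypes, as levels of 1 sample each. All 8 WT renin cells with *Hif1a* at 10 CPM or more also held *Epas1* at that level, and 39 held *Epas1* without *Hif1a*. Of the 14 Renin-null cells with *Hif1a*, 8 held *Epas1*, and 48 held *Epas1* alone of the pair.

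*Arnt* (chr3:95434388-95497240), whose protein pairs with either alpha subunit, gave a ratio that turned on 1 cell. In WT renin cells it ranged from 0 to 1018 CPM with a median of 0, and 4 of 51 cells were at 10 CPM or more. In Renin-null cells it ranged from 0 to 167 CPM with a median of 0.0885 CPM, and 17 of 96 cells were at 10 CPM or more. *Arnt* was thus in a larger share of Renin-null cells (17.7%, 10.7% to 26.8%) than of WT renin cells (7.84%, 2.18% to 18.9%). Its summed level was lower in Renin-null cells, at 10.9 against 49.0 CPM (log2 ratio -2.17, -2.22 to -2.12; -1.77 for YFP1 and -2.63 for YFP2). The highest WT renin cell held 93.2% of the WT counts, and with the highest cell of either genotype left out the ratio was 1.34. The median of all genes was then 1.89. Of the WT wells that share a sequencing index with that cell, 11 of 14 held a count of *Arnt*, against 5 of 36 wells that share none. For *Hif1a* the numbers were 10 of 14 against 16 of 36 in the WT library, but 1 of 14 against 18 of 33 in YFP1 and 5 of 14 against 19 of 33 in YFP2, where 2 wells carry index labels that differ between their title and description. The part of shared indices in the shares of cells with a count was not tested, so shares are also given at 10 CPM.

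**Figure D2:**
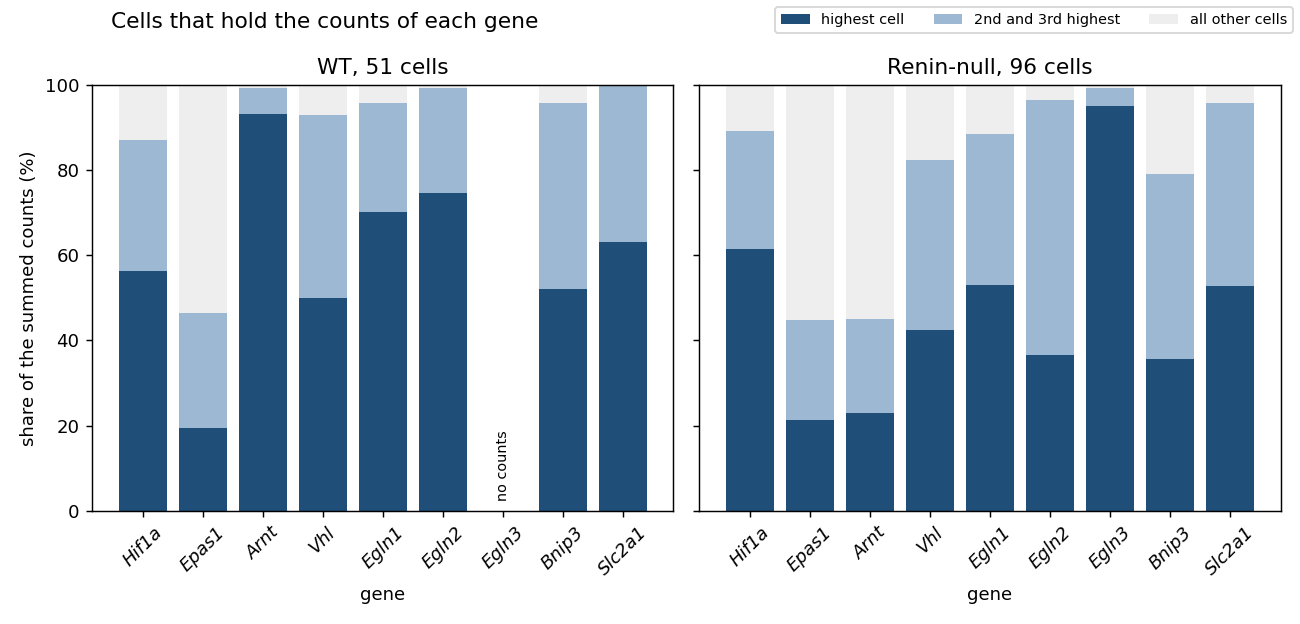
Share of the summed counts of each gene (%) held by the highest cell, the next 2 cells and all other cells of a genotype, for the 9 genes with a count. For *Epas1* the 3 highest cells held 46.5% of the WT and 44.8% of the Renin-null counts, and for every other gene with WT counts they held at least 87% of the WT counts.

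Among *Vhl* and the hydroxylase genes, *Vhl* had the lowest ratio and *Egln1* the highest. *Vhl* (chr6:113623959-113631633), the substrate receptor of the ligase, was at 212 CPM in WT renin cells (41980 counts) and at 0.722 CPM in Renin-null cells (288 counts). Over WT renin cells it ranged from 0 to 1741 CPM with a median of 1.05 CPM, and over Renin-null cells from 0 to 418 CPM with a median of 0. A count was held by 33 of 51 WT renin cells and by 8 of 96 Renin-null cells. The level reached 10 CPM in 11 of 51 WT renin cells, or 21.6% (11.3% to 35.3%). Among Renin-null cells it did in 5 of 96, or 5.21% (1.71% to 11.7%). In thinned cells the counts were 15 of 49 (30.6%) and 3 of 83 (3.61%).

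The log2 ratio of *Vhl* was -8.20 (-8.37 to -8.03), 294-fold lower in Renin-null cells, with -7.64 for YFP1 and -8.92 for YFP2. A log2 ratio of -8 or below was found for 1.05% of all genes with a ratio, and *Vhl* ranked 182nd from the lowest of 18720. The WT level came from few cells. The highest held 50.05% of the WT counts and the 3 highest 92.8%. Without the 3 highest cells of each genotype, 3000 WT and 51 Renin-null counts were left, and the ratio was -6.89. The highest WT well had 12067059 counts, 6406 genes and 3.03% mitochondrial counts, and was at 5932 CPM of the 2 renin cell genes, 960 CPM of fibroblast genes and 144 CPM of endothelial genes, against 100600, 173 and 180 CPM over all WT renin cells. The second, with 31.1% of the WT counts, was at 257900 CPM of the renin cell genes and 1559 CPM of endothelial genes. The part of these markers was not tested, and without the wells high in another cell type's markers the ratio was -8.33. All 15 of the WT wells that share an index with the highest well held a count of *Vhl*, against 17 of 35 others. In the Renin-null cells 122 of the 288 counts lay in 1 shallow YFP1 well of 292105 counts, with 1044 CPM of macrophage markers. *Vhl* was lower in Renin-null cells under all 15 other ways of scaling or choosing cells, but the size ranged from -8.93 to -0.69. Where cells were weighted more evenly the difference was smaller: -3.11 as the mean over cells of CPM, -3.72 in thinned cells, -2.55 with SCTransform counts, -1.74 as the difference of mean log2(CPM + 1) and -0.69 with a pseudocount of 10. The last 2 scales add 1 or 10 CPM to each cell, which makes differences between low levels smaller. A filter on cells (100000 counts or more, 1000 genes or more, mitochondrial share up to 25%) left 15 WT and 57 Renin-null cells, of which 5 and 2 held *Vhl* at 10 CPM or more.

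*Egln1* (chr8:124908587-124949324) encodes PHD2, the main oxygen sensor of most tissues. Its level was 0.238 CPM for WT (47 counts) and 9.76 CPM for Renin-null (3891 counts), 41.1-fold higher, with a log2 ratio of 5.36 (4.95 to 5.81). WT renin cells ranged from 0 to 1.93 CPM and Renin-null cells from 0 to 199 CPM, with medians of 0. It reached 10 CPM in 0 of 51 WT renin cells (upper exact limit 6.98%) and in 9 of 96 Renin-null cells (9.38%, from 4.38% to 17.1%). These intervals overlap, and most Renin-null cells lay below 10 CPM, as all WT renin cells did. With the cell filter the numbers were 0 of 15 and 6 of 57. Both libraries were higher than WT, at 5.92 and 4.63. The highest Renin-null well held 53.1% of the counts. It carried 3989 CPM of proximal tubule markers and 25.7 CPM of smooth muscle markers. Without all wells high in another cell type's markers the ratio was 7.66, which also dropped WT wells with 33 and 8 of the 47 WT counts. In thinned cells 0 of 49 WT and 5 of 83 Renin-null cells held a count, and 2.30 was a lower bound of the ratio on the floor of 3 counts. *Egln1* was higher in Renin-null cells under all 15 alternatives, and above the median of all genes in each.

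*Egln2* (chr7:27158658-27166802), which encodes PHD1, did not keep the sign of its ratio, but lay below the median of all genes under all 15 alternatives, by 0.02 to 6.43 on the log2 scale. WT renin cells ranged from 0 to 142 CPM and Renin-null cells from 0 to 155 CPM, both with a median of 0. Only 2 of 51 and 5 of 96 cells were at 10 CPM or more. With the cell filter the numbers were 2 of 15 and 2 of 57, so the order of the shares turned. The summed level was 11.6 CPM for WT and 3.27 CPM for Renin-null, a log2 ratio of -1.83 (-1.93 to -1.73). Nearly all WT counts, 99.3%, lay in 3 cells, and the mean over cells of CPM gave a ratio of 0.31. YFP1 gave -5.72 and YFP2 -1.0. A nearly identical pair of YFP2 wells held 476 and 320 of the 1304 Renin-null counts, and the ratio was -2.16 with such pairs counted once and -2.55 without wells high in another cell type's markers. On GENCODE M21, *Egln2* overlaps *Cyp2t4* on the other strand, and the protocol does not mark strand.

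*Egln3* (chr12:54178981-54203860) encodes PHD3, the most inducible of the hydroxylases. No WT renin cell held a count, and a count was found in 4 of 96 Renin-null cells, from 1 to 137 counts. Against a floor of 3 counts over the WT group, *Egln3* was at least 23.8-fold higher in Renin-null cells, but 95.1% of its 144 counts lay in 1 YFP1 cell, at 18.5 CPM. The library ratios on the same floor were 5.65 for YFP1 and 0.86 for YFP2, where 6 counts were found. The ratio thus rests on 1 cell, and without the highest cell the lower bound on that floor was 0.21. Without wells high in another cell type's markers the bound was 5.27. The same well was at 64.5 CPM of *Egln1*.

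Of the targets, *Slc2a1* was higher in Renin-null cells, on the counts of few cells. This gene (chr4:119108711-119137983) encodes the glucose transporter GLUT1. It was at 0.536 CPM in WT renin cells (106 counts in 2 cells, the higher at 5.48 CPM) and at 7.84 CPM in Renin-null cells (3126 counts in 12 cells, the highest at 233 CPM). Medians over cells were 0. It reached 10 CPM in 0 of 51 WT and in 4 of 96 Renin-null cells, or 4.17% (1.15% to 10.3%). The log2 ratio was 3.87 (3.59 to 4.16), 14.6-fold, with 2.58 for YFP1, where all 583 counts lay in 1 of 48 cells, and 4.45 for YFP2, where 11 cells held a count. The 3 highest Renin-null wells held 95.8% of the counts. The second highest held 10220 CPM of endothelial markers, and the 3 wells had between 8231 and 9966 genes. Without wells of another cell type's markers the ratio was 4.22, and without wells of over 9000 genes 3.21. In thinned cells 0 of 49 WT and 4 of 83 Renin-null cells held a count, and 2.18 was a lower bound of the ratio on the floor of 3 counts.

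*Bnip3* (chr7:138890836-138909519) encodes a protein of the outer mitochondrial membrane that marks mitochondria for mitophagy. In WT renin cells it ranged from 0 to 367 CPM and in Renin-null cells from 0 to 1222 CPM, both with a median of 0. It reached 10 CPM in 4 of 51 (7.84%, 2.18% to 18.9%) and in 14 of 96 cells (14.6%, 8.21% to 23.3%). With the cell filter it did in 4 of 15 WT and 10 of 57 Renin-null cells, so the order of the shares turned. The summed levels were 42.9 and 77.97 CPM, a log2 ratio of 0.86 (0.83 to 0.90) that was below the median of all genes by 0.31. YFP1 gave -0.31 and YFP2 1.41. The ratio was 0.55 without wells high in another cell type's markers and 0.74 with near-identical wells counted once. The Renin-null well with the highest level, 1222 CPM, was the smooth-muscle-poor well described for *Hif1a*, and both genes were at 10 CPM or more in 5 Renin-null cells and 2 WT renin cells.

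*Epo* (chr5:137483020-137533242), the gene of erythropoietin, had no count in any cell. This allows a share of cells with a count of up to 6.98% for WT renin cells and 3.77% for Renin-null cells, by exact intervals. A floor of 3 counts corresponds to 0.0152 and 0.00752 CPM. No ratio was taken.

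**Figure D3:**
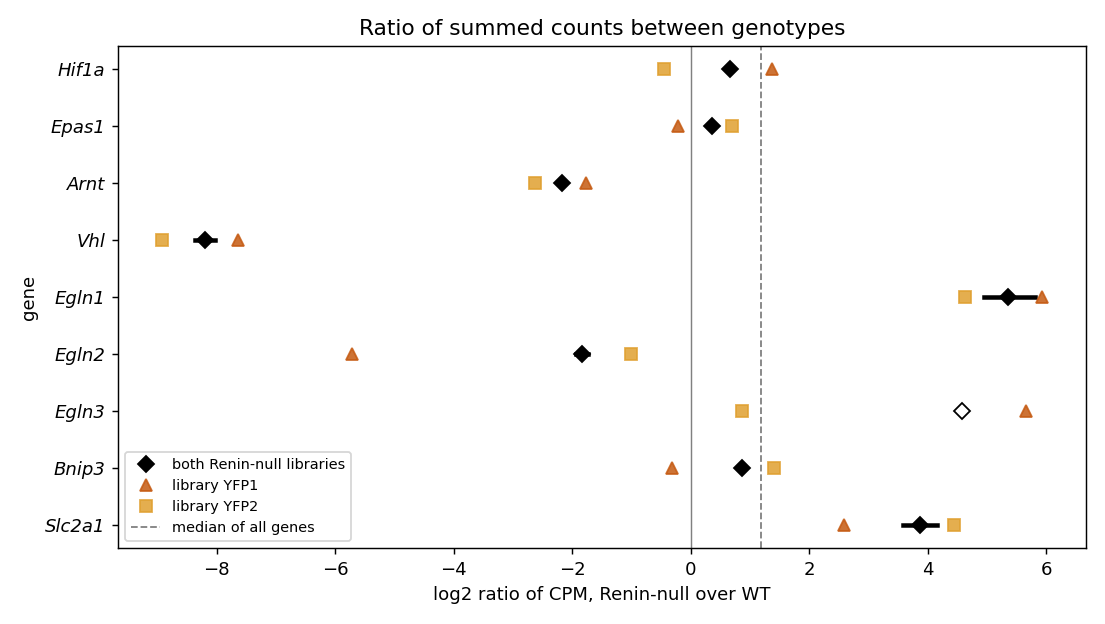
Log2 ratio of CPM, Renin-null over WT, for the 9 genes with a ratio: diamonds for all Renin-null cells with exact counting intervals as bars (most are narrower than the symbol), triangles for YFP1 and squares for YFP2; the open diamond of *Egln3* rests on the floor of 3 counts. The libraries lie on opposite sides of 0 for *Hif1a*, *Epas1* and *Bnip3* and on the same side for the other 6 genes.

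Of the 9 genes with a ratio, 6 were higher in Renin-null cells, against 67.6% of all genes. Their median log2 ratio was 0.66, below the 1.17 of all genes. Taking a log2 ratio of at least 1 above the median of all genes as the limit, *Egln1*, *Egln3* and *Slc2a1* were past it (3 of 9, against 37.6% of all genes), with *Egln3* on the counts of 1 cell. On the other side were *Arnt*, *Vhl* and *Egln2* (3 of 9, against 34.6%). Neither share was far from that of all genes. The sign was opposite in YFP1 and YFP2 for 3 of 9 genes, against 21.6% of all genes, and above 0 in both libraries for 3 of 9, against 41.4%. These 2 shares of all genes are lower than over genes with a ratio in both libraries. Of the 18720 genes, 17198 had a ratio in YFP1 and 17577 in YFP2, and the rest counted as not called. All 9 examined genes had both. With the scale set by trimmed means (TMM) the number higher was 4 of 9, since *Hif1a* and *Epas1* then lay below 0. The median of all genes was 0.47 on that scale, so the 67.6% does not apply there. The number above that median was 3 of 9 on both scales. A single cell held at least 50% of the WT counts for 7 of the 9 genes with a ratio, against 62.7% of all genes with a ratio. The exceptions were *Egln3*, without a WT count, and *Epas1*. None of the 10 genes reached 10 CPM in 3 WT and 23 Renin-null cells. In 29 and 38 cells 1 gene did, and the most in any cell was 5 and 4.

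The genes most like *Epas1* over the 51 WT renin cells were *Ywhaz*, *Id3* and *Tsc22d1* (Spearman's rho of CPM 0.84, 0.83 and 0.83, of 2471 genes compared). These cells share a library and a wide range of RNA quality. *Epas1* itself had a rho of 0.34 with the counts per cell and of -0.68 with the mitochondrial share. Over the 96 Renin-null cells, *Aoc3*, a vascular amine oxidase, and *Pdgfrb*, a receptor of mural cells, were the most like it at 0.52 and 0.51, with rho of 0.17 with the counts and -0.13 with the mitochondrial share. For *Hif1a* in WT renin cells *Sntb1*, *Srp14* and *Dgke* were at 0.63, 0.59 and 0.59, with 0.44 for the counts per cell.

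The other genes of a list of 68 pathway genes were spread as widely. Among the remaining subunits, *Hif3a* was at 0.0758 and 0.206 CPM and *Arnt2* at 0.197 and 2.39 CPM. Of the partners of VHL in its ligase, *Cul2*, the scaffold, was at 12.0 and 108 CPM (log2 ratio 3.16 in all cells and in each library), although 99.7% of its WT counts lay in 1 cell. *Eloc* was at 45.9 and 88 CPM (0.94). Of the coactivators, *Ep300* (87.9 and 285 CPM, 1.70) and *Crebbp* (261 and 804 CPM, 1.62) were near the median of all genes in ratio. *Cited2*, which competes with HIF for them, was at 13.9 and 7.76 CPM (-0.84), with -5.11 for YFP1 and no difference for YFP2.

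Of 50 known HIF targets on that list 48 had a ratio. In these, 33 were higher and 15 lower in Renin-null cells (67.6% of all genes were higher), and the median log2 ratio was 1.38 against 1.17 for all genes. Past the limit of 1 around the median of all genes were 20 above (37.6% of all genes) and 15 below (34.6%). The targets as a list thus lay close to all genes, and the groups of targets differed in their medians.

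Glycolysis genes went both ways. Of the 20 genes with a ratio, 11 were higher and 9 lower, with a median of 0.98 (67.6% of all genes were higher). Of the 15 that reached 10 CPM in either genotype, 7 were higher and 8 lower (65.1% of all genes at that level were higher). *Gapdh* was at 594 CPM for WT and 421 CPM for Renin-null (-0.50), *Pgk1* at 143 and 118 CPM (-0.28), and *Pgam1* at 48.6 and 31.1 CPM (-0.64). *Gapdh* and *Pgk1* were at least 1 below the median of all genes in both libraries. *Hk2*, a hexokinase, was at 194 and 28.4 CPM (-2.77), and 1 cell held 99.2% of the WT counts. The phosphofructokinase genes were higher, *Pfkl* at 0.824 and 97.5 CPM (6.89) and *Pfkp* at 10.8 and 101 CPM (3.22), but *Pfkp* gave 4.30 for YFP1 and -0.65 for YFP2.

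Among mitochondrial targets, *Bnip3l*, the relative of *Bnip3*, was at 60.8 and 294 CPM (2.27, with 1.17 and 2.81 by library). *Fundc1*, another mitophagy receptor, was at 0.157 and 39.5 CPM (7.98), lower than WT in YFP1 (-2.24) and higher in YFP2 (8.85). The respiratory chain genes *Cox4i2* (102 and 74.6 CPM, -0.45) and *Ndufa4l2* (110 and 76.1 CPM, -0.53) were both more than 1 below the median of all genes.

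Of the secreted signals, *Vegfa* was at 0.283 CPM for WT and 61.3 CPM for Renin-null (7.76), with 3.06 for YFP1 and 8.61 for YFP2. *Adm*, adrenomedullin, was at 1.79 and 47.9 CPM (4.74), with 90.9% of its Renin-null counts in 1 cell. *Angptl4* was at 20.4 and 4.69 CPM (-2.12), and *Flt1*, a VEGF receptor, at 6.01 and 10.1 CPM (0.75). *Tfrc*, the transferrin receptor, was at 24.7 and 0.717 CPM (-5.11), and 1 cell held 99.6% of the WT counts.

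The matrix enzymes *P4ha1* (2.05 and 17.0 CPM, 3.05) and *Plod2* (1.66 and 26.5 CPM, 4.00) were higher in both libraries. *P4ha2* was at 47.2 and 21.6 CPM (-1.13), and *Lox* at 93.2 and 110 CPM (0.24). All 7 genes of feedback and stress were higher in Renin-null cells (67.6% of all genes were), and their median was 4.74. Only 3 of the 7 reached 10 CPM in either genotype, and the median of these was 2.14. They included *Kdm3a*, a histone demethylase (1.6 and 42.8 CPM, 4.74), *Ndrg1* (77.4 and 340 CPM, 2.14) and *Bhlhe40* (145 and 248 CPM, 0.77), the latter below the median of all genes. *Egln3* is 1 of these 7 and rests on 1 cell, as given above.

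**Figure D4:**
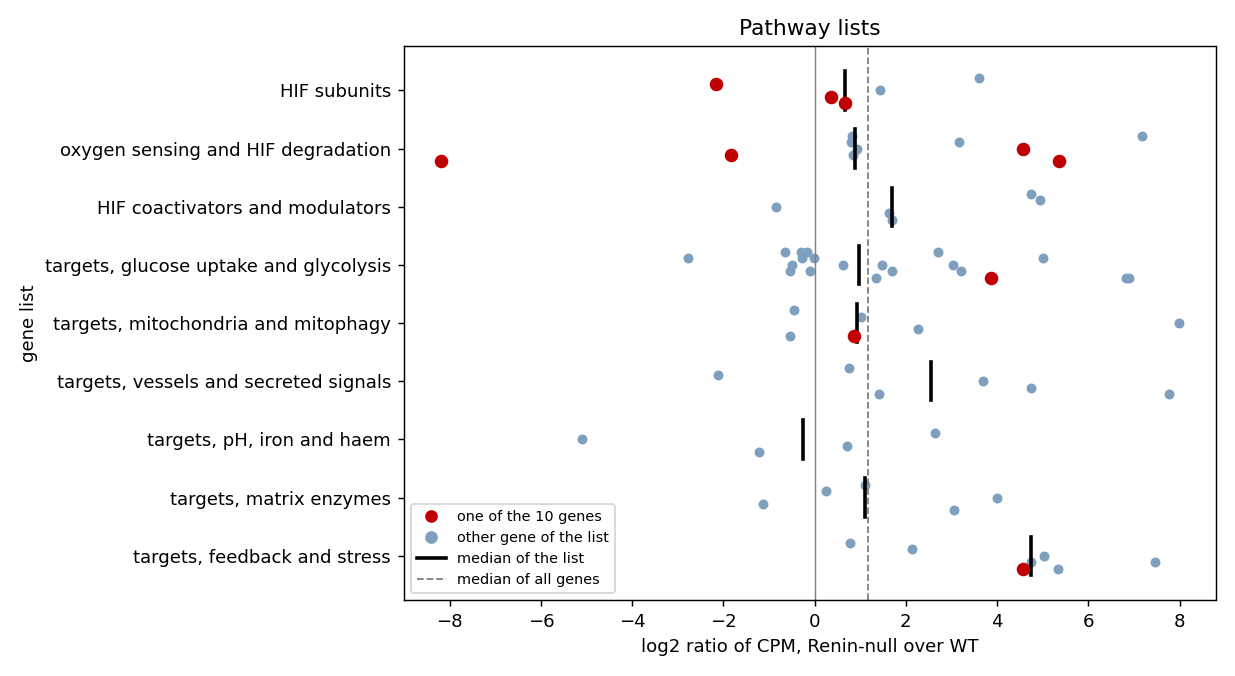
Log2 ratio of CPM, Renin-null over WT, for each gene with a ratio in the 9 pathway lists; red points are the 9 examined genes with a ratio, blue points the other genes, the black bar is the list's median and the dashed line the median of all genes (1.17). Genes lie on both sides of that line in every list, and the list of feedback and stress has the highest median (4.74).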

How the data were processed

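The authors trimmed reads with Trimmomatic (0.39), checked them with FastQC (0.11.5), quantified them with Salmon (0.11.2) on GRCm38.p6 and summed transcripts to genes with tximport (lengthScaledTPM), per the study's methods and the submitters' processing notes. The deposited values are expected counts per gene and cell, corrected for differences in transcript length between cells and not for depth. They were rounded, summed per genotype and scaled to CPM. Where a genotype had no count, 3 counts over its cells stood in for it, and genes with 3 or fewer in both genotypes had no ratio. Cells are not replicates, so no test was run. Intervals (level 95%) are exact Poisson, exact conditional binomial or Clopper-Pearson intervals. Those on levels and ratios cover counting error only, since without molecular identifiers PCR copies count as separate molecules. Those on shares of cells treat cells as independent draws, although the mouse and capture of a cell are unknown. The 10 genes, the 68 pathway genes and the marker lists were chosen with earlier results of these data known. Named are the 10 genes and, of each list, the 2 highest and 2 lowest ratios among genes of at least 10 CPM in the higher genotype, and genes of at least 100 CPM past the limit in both libraries. Of the endothelial, fibroblast, proximal tubule and podocyte lists the most abundant gene was named, and of the renin cell list both genes. Some marker values are not reported here. *Hif3a* and *Arnt2* were named after their values were seen. Likeness was taken over genes detected in 50% or more of a genotype's cells, and named from a rho of 0.5. Coordinates and overlaps came from GENCODE M21 (GRCm38) and promoters from RefSeq. *Hif1a*, *Bnip3* and *Slc2a1* overlap antisense genes there, which cannot be told apart without strand. On the same strand, *Hif1a* overlaps the protein-coding gene *Gm49321*, *Epas1* overlaps *AC096777.1*, *Arnt* the pseudogene *Gm42672* and *Slc2a1* the microRNA *Mir1957a*. *Epo*, without a count, overlaps genes on either strand. The part of these overlaps in the counts was not tested. *Vhl*, *Egln1* and *Egln3* overlap no gene. No doublet caller was run. The ratio was tested on simulated data drawn with counting error only, which lack the spread between cells seen here. Software was Python 3.11.15 (numpy 2.4.6, pandas 2.3.3, scipy 1.17.1, matplotlib 3.10.9) and R 4.3.3 (edgeR 4.0.16 for TMM, Seurat 5.3.0 and sctransform 0.4.2 for SCTransform).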

Additional observations from a re-analysis of the deposited data

How the results depend on the processing

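The medians were recomputed under 17 alternatives, the ratios of single genes under 15 of them (12 for *Egln3*) and the shares of cells under 3. Of these, 1 (the 3 highest cells of each genotype left out) was chosen after seeing the data. The median log2 ratio of the 9 genes was 0.66 as reported, and that of the targets 1.38. They were -0.04 and 0.68 with TMM factors, 0.50 and 1.22 without mitochondrial genes, 1.09 and 1.91 as the mean over cells of CPM, 0.14 and 0.41 as a difference of mean log2(CPM + 1), and 0.11 and 0.18 with a pseudocount of 10. With YFP1 alone they were -0.22 and 1.04, and with YFP2 alone 0.70 and 0.94. They were 0.48 and 2.29 without the highest cell of each genotype, 1.90 and 3.04 without the 3 highest, and 0.40 and 1.15 with the cell filter. Without wells of another cell type they were 0.55 and 1.11, and with SCTransform counts 1.17 and 2.18. Over genes of at least 10 CPM in the higher genotype they were -0.74 and 0.86, and the median of all genes at that level was 0.86. There 3 of 6 of the examined genes were higher, against 65.1% of all genes at that level. The first median was 0.73 with near-identical wells counted once and 0.91 without wells of over 9000 genes, and the second was 1.62 in thinned cells. The median of all genes moved too. It was 0.47 with TMM factors, 0.13 and 0.05 on the 2 log2 scales, and 1.89 and 2.57 without the highest cell or 3 cells. The median of the 9 genes was 0.02 and 0.06 above it on the log2 scales, and below it under every other alternative. That of the targets was 0.40 and 0.47 above it without the highest cell or 3 cells, and 0.04 below it with YFP2 alone. *Egln2* turned to 0.31 as the mean of CPM, 0.03 as mean log2(CPM + 10), 0.61 without the 3 highest cells and 0.74 with SCTransform. *Arnt* turned to 0.61 and 0.21 as mean log2(CPM + 1) and log2(CPM + 10), and to 1.34 and 3.92 without the highest cell or 3 cells. Of these values, 1.34 was still 0.54 below the median of all genes in its setting, and the others were above it. For *Egln3*, with no WT count in thinned cells, the lower bound on the floor of 3 counts was -0.35 there, which is no change of direction. *Epas1* changed sign in 5, to -0.35 with TMM factors, -0.93 and -0.33 as mean log2(CPM + 1) and log2(CPM + 10), -0.22 in YFP1 and -0.27 without wells of another cell type. *Vhl*, *Egln1* and *Slc2a1* kept their sign and their side of the median of all genes under all 15, but *Egln1* and *Slc2a1* were less than 1 above it as differences of mean log2 values. *Vhl* was 0.75 below it as the difference of mean log2(CPM + 10), and so did not reach the limit of 1 there either. In thinned cells the ratios of *Egln1* and *Slc2a1* were lower bounds, as no WT cell held a count. The alternatives that leave out cells recompute the ratios only, and the cause of these changes was not tested. No paired analysis was possible because each genotype was 1 sample and the cells carry numbers in accession order only. *Egln1* and *Slc2a1* had 47 and 106 WT counts, which limits the precision of their ratios.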
